A study of Drosophila melanogaster with 4 samples.

Results

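The shortest small RNAs found with the fly Argonaute proteins Ago1 and Ago2 were counted at 2 ages. They were all distinct sequences of 16, 17, 18 or 19 nt in the deposited lists, each counted once per library, and numbered 2146 of 7181 distinct sequences over the 4 libraries. The small RNAs came from whole male Drosophila melanogaster of the genotype FLAG-HA-Ago2, in which Ago2 carries an epitope tag, raised at 25 °C and aged to 3 d or 30 d. Immunoprecipitation used an antibody to Ago1 (ab5070) or, for Ago2, anti-FLAG M2 beads that bind the tag, both on flies with tagged Ago2, so a difference between the proteins is also one between reagents. The 4 groups, called Ago1 3 d, Ago1 30 d, Ago2 3 d and Ago2 30 d after protein and age, had 1 library each, so no difference below has a replicate check and no test between groups was made. The tissue could not be checked against marker genes, since the lists hold small RNAs alone.

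In flies a miRNA guide strand is cut from a hairpin, loaded into Ago1 or Ago2, and finds its targets mainly through the seed, bases 2 to 8 from the 5' end. Most guide strands of miRNAs go to Ago1, whereas Ago2 is chiefly the siRNA protein and accepts some miRNA strands as well. The exonuclease Nibbler shortens the 3' ends of some Ago1-bound miRNAs, and the methyltransferase Hen1 adds a methyl group to the 3' ends of Ago2-bound small RNAs. A read of 16 to 19 nt is shorter than the usual product of Dicer-1, and where its 5' end is intact it keeps the seed of the longer strand.

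Listed sequences that overlapped exactly were grouped into arms, an arm standing for 1 strand of a hairpin together with the forms that differ at its ends. Short forms that recur in the results are shown first, each inside the most abundant sequence of its arm over the 4 libraries, 5' to 3'. Capitals mark the bases kept in the short form and lower case the bases missing from it, with T standing for U as in the lists.
miR-263a-5p 19 nt: AATGGCACTGGAAGAATTCacggg
miR-263b-5p 18 nt: CTTGGCACTGGGAGAATTcacag
miR-277-3p 19 nt: TAAATGCACTATCTGGTACgac
miR-34-5p 18 nt: TGGCAGTGTGGTTAGCTGgtt
miR-276a/b-5p 17 nt: AGCGAGGTATAGAGTTCctacg
miR-305-3p 18 nt: CGGCACATGTTGAAGTACactca
let-7-5p 19 nt: TGAGGTAGTAGGTTGTATAgt
bantam-3p 18 nt: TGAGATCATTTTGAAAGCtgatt
miR-316-5p 19 nt: TGTCTTTTTCCGCTTACTGgc
miR-957-3p 19 nt: TGAAACCGTCCAAAACTGAggc
miR-9a-5p 19 nt: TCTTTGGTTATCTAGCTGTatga
miR-993-3p 19 nt: GAAGCTCGTCTCTACAGGTatct
miR-1-3p 19 nt: gAATGTAAAGAAGTATGGAG
The miR-1-3p form lacks the first base of the 20 nt sequence shown, which itself begins inside the usual 5' start of the miRNA. The other forms keep the whole 5' end of the sequence shown and lack 2 to 5 bases at the 3' end. By gene name in the RefSeq annotation, miR-263a, miR-305, let-7 and miR-1 lie on chromosome arm 2L, miR-263b, miR-276, bantam, miR-316, miR-957 and miR-9a on 3L, and miR-277, miR-34 and miR-993 on 3R. The arms of miR-263a-5p and miR-263b-5p have identical bases at 16 of their first 19 positions and at 6 of the 7 seed positions.

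The lists held 26636441 reads in Ago1 3 d, 26451651 in Ago1 30 d, 13491805 in Ago2 3 d and 34554191 in Ago2 30 d. The number of distinct 16 to 19 nt sequences was 1235, 1184, 711 and 1344 in that order, and that of the smallest library, Ago2 at 3 d, was the lowest. Most were rare. Between 22.8% and 35.6% of them had 1 read, and 229, 261, 165 and 253 reached 1 read per 1000000 listed reads (RPM). Of the 2146 sequences, 402 were listed in all 4 libraries and held 95.8% to 99.3% of the short reads of each, while 921 were listed in 1 library.

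Short reads made up 0.662% of listed reads in Ago1 3 d (Wilson 95% interval 0.659% to 0.665%) and 0.899% in Ago1 30 d (0.895% to 0.903%). They made up 1.38% in Ago2 3 d (1.38% to 1.39%) and 4.50% in Ago2 30 d (4.49% to 4.51%). These and all other intervals cover counting error alone. The share was therefore lowest in Ago1 3 d and highest in Ago2 30 d. The 30 d library was 1.36-fold above the 3 d library with Ago1 and 3.26-fold above it with Ago2, and Ago2 was 2.09-fold above Ago1 at 3 d and 5.01-fold at 30 d.

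A single form, the 19 nt form of miR-263a-5p, set the level with Ago2. Its arm held 80.7% of the short reads in Ago2 3 d and 81.8% at 30 d, against 10.1% and 9.47% with Ago1. With all sequences of the miR-263a-5p arm left out, the short share was 0.627% in Ago1 3 d, 0.845% in Ago1 30 d, 0.518% in Ago2 3 d and 1.82% in Ago2 30 d. The arm's longer reads were then out of the total as well, not only its short ones. At 3 d the order of the proteins then turned round, with a log2 ratio of Ago2 over Ago1 of -0.28 in place of 1.06, and at 30 d the ratio was 1.11 in place of 2.32. The difference between ages kept its direction, with log2 ratios of 0.43 with Ago1 and 1.82 with Ago2.

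Most short reads were 19 nt long. This length held 78.0% of them in Ago1 3 d, 72.6% in Ago1 30 d, 91.1% in Ago2 3 d and 90.7% in Ago2 30 d. Reads of 16 nt held at most 3.95% in any library. No listed sequence was shorter than 16 nt. At the upper limit, sequences of 19 nt held 5167, 6527, 12590 and 40815.9 RPM in the same order of libraries and sequences of 20 nt, just outside, held 37490.0, 45320.4, 4265 and 8497 RPM. The 20 nt class was thus above the 19 nt class in both Ago1 libraries and below it in both Ago2 libraries. Without miR-263a-5p the 20 nt class was above the 19 nt class in all 4 libraries, with 3867 against 1668 RPM in Ago2 3 d and 7559.9 against 4688 RPM in Ago2 30 d.

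**Figure D1:**
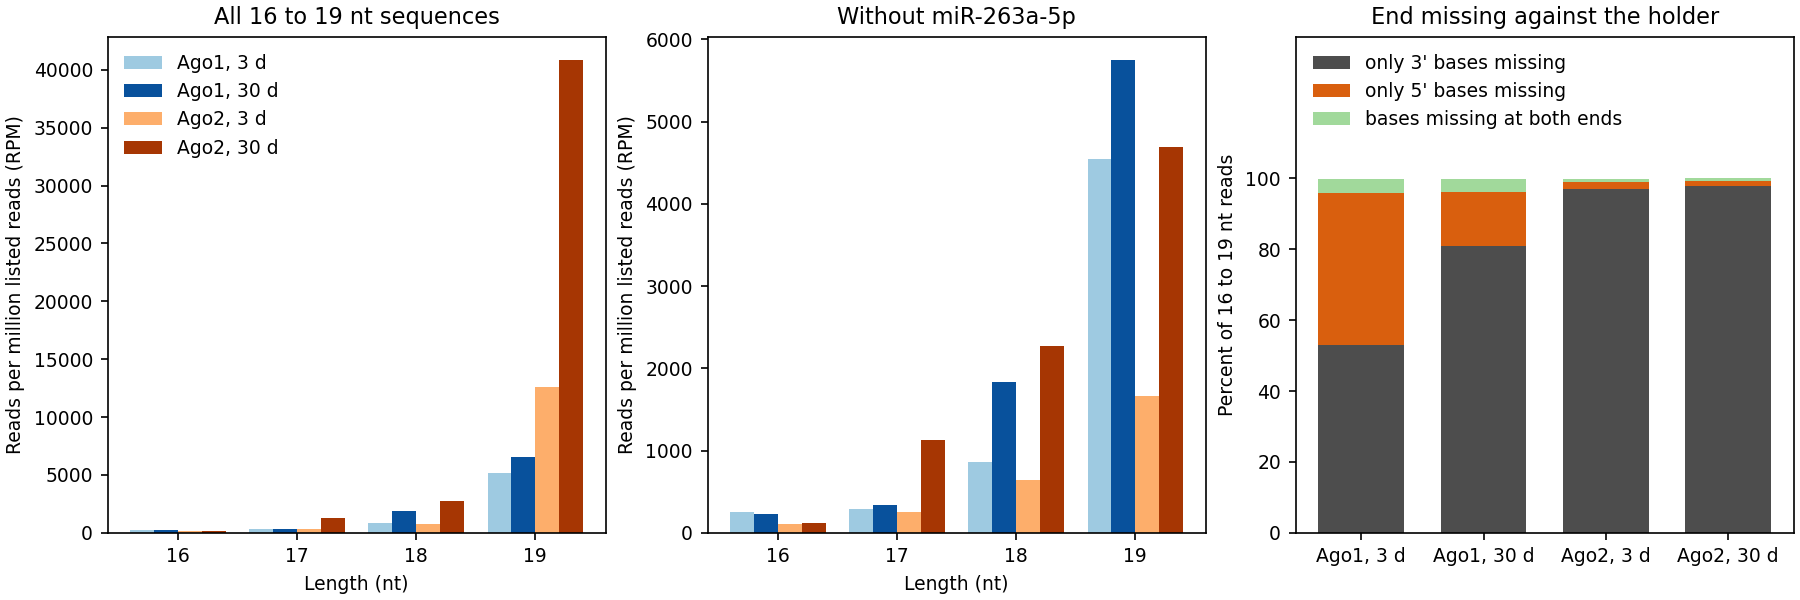
Bars show RPM by length for all 16 to 19 nt sequences (left) and without miR-263a-5p (middle), and the percent of 16 to 19 nt reads that lack bases at the 3' end, the 5' end or both (right), for 1 library per group. The 19 nt bar of Ago2 30 d stands at 40815.9 RPM with miR-263a-5p and at 4688 RPM without it, and the 5' class is largest in Ago1 3 d, at 43.1%.

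Nearly all short sequences lay inside a longer listed one. The holder of a short sequence was the most abundant listed sequence of at least 20 nt of the same library that contained it letter for letter. A holder was found for 1228 of 1235 sequences in Ago1 3 d, 1177 of 1184 in Ago1 30 d, 702 of 711 in Ago2 3 d and 1324 of 1344 in Ago2 30 d. These short sequences fell into 292, 268, 197 and 340 distinct holders. The 7, 7, 9 and 20 sequences without a holder had 7, 31, 9 and 41 reads in all, so they were rare. The 5 most abundant had 22, 3, 2, 1 and 1 reads in Ago1 30 d and 9, 7, 3, 2 and 2 in Ago2 30 d, and at 3 d each of them had 1 read with either protein. Most of these 20 sequences belonged to no arm, 1 in Ago1 3 d belonged to let-7-5p and 1 in Ago2 3 d to miR-276a/b-5p. Sequences contained in holders of at least 100 reads from more than 1 arm held at most 0.00397% of short reads, so the placement was rarely ambiguous between arms.

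The end that was missing differed between the libraries. With Ago1 at 3 d, 52.9% of short reads lacked 3' bases alone (Wilson 95% interval 52.6% to 53.1%) and 43.1% lacked 5' bases alone (42.9% to 43.4%). With Ago1 at 30 d these shares were 80.8% and 15.4%. With Ago2 they were 97.0% and 2.18% at 3 d, and 97.9% and 1.36% at 30 d, so 5'-shortened reads were a small class with Ago2 at both ages. Reads lacking bases at both ends held 3.98%, 3.74%, 0.847% and 0.712% in the order of the libraries. Counted as distinct sequences the classes were far more even, since only 27.1%, 28.0%, 42.6% and 37.6% of sequences lacked 3' bases alone.

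In RPM, reads lacking 3' bases alone numbered 3501 in Ago1 3 d, 7266 in Ago1 30 d, 13398 in Ago2 3 d and 44061.7 in Ago2 30 d. Reads lacking 5' bases alone numbered 2856, 1386, 301 and 613 RPM. The 2 classes thus went in opposite directions between ages with Ago1, with log2 ratios of 30 d over 3 d of 1.05 (95% interval 1.04 to 1.06) for 3'-shortened and -1.04 (-1.06 to -1.02) for 5'-shortened reads. With Ago2 both were higher at 30 d, by 1.72 and 1.03 on the log2 scale. One 19 nt form of miR-8-3p, given below, held 66.0% of the 5'-shortened reads in Ago1 3 d and 35.4% in Ago1 30 d. It was at 1884 and 491 RPM there, so most of the difference of the 5' class between ages with Ago1 lay in this 1 form.

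The number of bases missing is bounded by the lengths of the short reads and of their holders, so a loss of few bases follows from the lengths taken. With Ago1 at 3 d, 33.6% of placed reads lacked 4 bases at the 5' end and 15.8% lacked 4 at the 3' end. With Ago1 at 30 d, 35.5% lacked 3 bases and 20.8% lacked 4 bases at the 3' end. With Ago2, 81.1% of placed reads at 3 d and 82.9% at 30 d lacked 5 bases at the 3' end, which is the distance from the 19 nt form of miR-263a-5p to its 24 nt holder. Without that arm, loss of 3 bases at the 3' end was the largest class with Ago2, at 49.8% and 48.0%.

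Since 3' loss was the main class, most short reads began at the 5' start of their arm and so kept its seed. The share that began exactly at the start of the arm's most abundant sequence was 52.8% in Ago1 3 d, 80.2% in Ago1 30 d, 96.9% in Ago2 3 d and 97.6% in Ago2 30 d. Reads that began 2 or more bases inside it held 43.9%, 16.6%, 2.54% and 1.62%.

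The first base of the short reads differed from that of longer reads of the same library. Short reads began with A in 52.9% in Ago1 3 d, 30.8% in Ago1 30 d, 82.5% in Ago2 3 d and 85.0% in Ago2 30 d, while reads of 20 to 24 nt of the same libraries began with A in 17.2%, 18.4%, 55.2% and 62.3%. miR-263a-5p begins with A. Without it, A still began 48.3% of the short reads in Ago1 3 d and 24.04% in Ago1 30 d, against 12.8% and 15.3% of reads of 20 to 24 nt. Also without it, A began 12.7% and 20.3% of the short reads in Ago2 3 d and 30 d, G was at 33.2% and 15.4%, C at 29.1% and 25.6%, and U at 25.0% and 38.7%. Reads of 20 to 24 nt without that arm began with U in 73.9% and 64.5% with Ago2, and with G in 2.59% and 4.51%. The G and C reads include those of unnamed arm 2, which begins with G, and of miR-8-5p, which begins with C. With Ago1, the A reads other than miR-263a-5p include those of the 5'-shortened 19 nt form of miR-8-3p, given below. That form had 50185 of 76558 such reads in Ago1 3 d and 12997 of 51746 in Ago1 30 d. Counted per distinct sequence, U began 29.9% to 31.6% of the short sequences in every library.

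The bases at the shortened 3' end also depended on a few abundant forms. Among reads lacking 3' bases alone and without miR-263a-5p, the last base was C in 49.7% in Ago2 3 d and 51.2% at 30 d, against 30.5% and 25.1% with Ago1. Counted per distinct sequence, C was the last base in 25.1% to 29.1% in every library, so the difference lay in the read numbers of a few sequences. The next base of the holder, the first one missing, was U in 35.3% to 37.3% of these sequences.

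miR-263a-5p, a miRNA of sensory organ cells, gave the most abundant short form with Ago2. Its 19 nt form, which ends 5 bases before the 24 nt form, was at 592 RPM in Ago1 3 d, 758 RPM in Ago1 30 d, 10882 RPM in Ago2 3 d and 36000.4 RPM in Ago2 30 d. Both Ago2 libraries were above both Ago1 libraries, 18.4-fold at 3 d and 47.4-fold at 30 d. The 30 d library was 3.31-fold above the 3 d library with Ago2 and 1.28-fold with Ago1. The full arm was also far higher with Ago2, at 50498, 37043, 484052 and 549506 RPM in the same order. The RPM of all other sequences are relative to a total that includes this arm. As a share of the arm's reads the short forms were 1.32%, 2.30%, 2.30% and 6.70% in that order. With Ago2 the lengths of this arm fell into separate groups. Forms with the intact 5' end held 6.55% of the arm's reads at 19 nt in Ago2 30 d, but 0.0209% at 20 nt, 0.0441% at 21 nt and 86.7% at 24 nt. With Ago1 at 30 d they held 2.05% at 19 nt, 0.671% at 20 nt, 2.52% at 21 nt and 62.1% at 24 nt, so the trough between the 19 nt and the longer forms was shallower. Its 18 nt form was at 7.40, 12.7, 76.8 and 381 RPM in the order of the libraries, and its 17 nt form at 7.997, 6.12, 54.8 and 49.7 RPM.

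miR-34-5p, a miRNA known for its role in neuronal ageing in flies, had a short form of 18 nt. This form was at 16.2 RPM in Ago1 3 d, 605 RPM in Ago1 30 d, 29.9 RPM in Ago2 3 d and 446 RPM in Ago2 30 d. It was high at 30 d with both proteins, with log2 ratios of 30 d over 3 d of 5.14 with Ago1 (95% interval 5.09 to 5.37) and 3.86 with Ago2 (3.76 to 4.05). Short forms made up 1.48% of the arm's reads in Ago1 3 d, 13.8% in Ago1 30 d, 33.9% in Ago2 3 d (Wilson 95% interval 31.4% to 36.6%) and 82.7% in Ago2 30 d. In the Ago2 library at 30 d the 18 nt form had 15402 reads and its 21 nt holder 1030, so the short form was 14.95 times as abundant as the sequence it lies in. As with miR-263a-5p, the neighbouring lengths were rare, with 0.326% of the arm's reads at 19 nt against 81.0% at 18 nt.

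miR-276a/b-5p, the 5' strand of the mir-276a and mir-276b hairpins, was mostly short with Ago2. The 17 nt form was at 1.01 RPM in Ago1 3 d, 1.70 RPM in Ago1 30 d, 121 RPM in Ago2 3 d and 857 RPM in Ago2 30 d. Both Ago2 libraries stood far above both Ago1 libraries. Short forms were 6.35%, 22.7%, 64.0% and 90.8% of the arm's reads in that order. With Ago2 at 30 d the 17 nt form held 68.0% of the arm's reads, the 18 nt form 13.8%, the 19 nt form 8.32% and the 22 nt form 7.91%. With Ago1 at 30 d the 19 nt form led among the short ones, at 16.97%, with 4.13% at 17 nt.

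miR-277-3p, a miRNA that acts on branched-chain amino acid breakdown, had a 19 nt form that lacks 3 bases. It was at 26.5 RPM in Ago1 3 d, 128 RPM in Ago1 30 d, 66.3 RPM in Ago2 3 d and 905 RPM in Ago2 30 d. The Ago2 library at 30 d was the highest, and with both proteins the 30 d library was above the 3 d library. The short share of the arm was 0.155%, 0.292%, 0.818% and 10.1%. The 18 nt form of miR-305-3p, from a hairpin known for its role in gut stem cells, was at 1.16, 4.65, 16.97 and 356 RPM, and its arm's short share was 0.117%, 0.206%, 0.531% and 3.91%. It was again highest in Ago2 30 d.

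Some short forms were mainly in the Ago1 libraries. The 19 nt form of miR-184-3p, a miRNA known from oogenesis and early development, which lacks 3 bases at the 3' end, was at 613 RPM in Ago1 3 d, 1921 RPM in Ago1 30 d, 86.9 RPM in Ago2 3 d and 247 RPM in Ago2 30 d. Both proteins showed more of it at 30 d, and Ago1 was above Ago2 at both ages. The 18 nt form of bantam-3p, a miRNA that promotes growth and cell survival, was at 294, 355, 4.37 and 9.52 RPM in that order. That of let-7-5p at 19 nt, a miRNA of developmental timing, was at 281, 403, 20.1 and 101 RPM. For miR-281-2-5p, a 19 nt form that lacks 4 bases at the 3' end was at 419, 777, 28.9 and 40.6 RPM. For each of these 4 forms the Ago1 library was above the Ago2 library at both ages. The short share of the arm went the other way for 3 of the 4 arms, being higher with Ago2 at both ages. For bantam-3p it was 0.499% in Ago1 3 d, 0.750% in Ago1 30 d, 1.20% in Ago2 3 d and 2.64% in Ago2 30 d. For miR-281-2-5p it was 0.635%, 0.895%, 1.10% and 1.28%, and for let-7-5p it is given below. For miR-184-3p it was higher with Ago1, at 0.581%, 2.24%, 0.372% and 0.979%. Other short forms of these arms were also among the most abundant. The 18 nt form of miR-184-3p was at 54.7, 281, 84.3 and 222 RPM, the 19 nt form of bantam-3p at 96.3, 106.6, 2.45 and 9.09 RPM, and the 17 and 18 nt forms of let-7-5p at 106.8 and 95.4 RPM in Ago1 3 d, 137 and 130 RPM in Ago1 30 d, 11.3 and 8.82 RPM in Ago2 3 d and 29.5 and 82.4 RPM in Ago2 30 d.

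Forms lacking 5' bases alone were found in many arms, but few arms held most of their reads. The 447, 423, 199 and 397 distinct sequences of this class, in the order of the libraries, came from 84 arms in Ago2 3 d and from more in the other libraries. The 5 arms with the most such reads held 85.5%, 73.3%, 61.8% and 55.8% of them. Among arms with at least 1000 reads and a short form, those with more 5'-shortened than 3'-shortened reads numbered 39 of 104, 25 of 99, 9 of 69 and 12 of 95. The most abundant short form in Ago1 3 d was a 19 nt form of miR-8-3p, a miRNA known for promoting growth through insulin signalling, that lacks 4 bases at the 5' end and none at the 3' end, and so lacks part of the seed. It was at 1884 RPM in Ago1 3 d, 491 RPM in Ago1 30 d, 11.7 RPM in Ago2 3 d and 39.1 RPM in Ago2 30 d. It held 28.5% of all short reads in Ago1 3 d. The 30 d library was lower with Ago1 and higher with Ago2, with log2 ratios of -1.94 (95% interval -1.97 to -1.91) and 1.66 (1.502 to 1.99), and the difference between these ratios was not tested. Another 19 nt form of the arm, which lacks 4 bases at the 3' end instead, was higher at 30 d with both proteins, at 93.0, 270, 30.5 and 118 RPM in the order of the libraries. Of the short reads of miR-8-3p, 93.7% lacked 5' bases alone in Ago1 3 d and 63.0% in Ago1 30 d.

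miR-1-3p is the main miRNA of muscle. Its most abundant listed form, of 20 nt, begins inside the usual 5' start of the miRNA, so the forms below are shortened relative to a sequence that is itself short of 5' bases. That form had 6960 reads in Ago1 3 d, 6022 in Ago1 30 d, 336 in Ago2 3 d and 3122 in Ago2 30 d. Its short forms shared the 3' end and lacked further 5' bases. The 19 nt form was at 106, 88.0, 1.04 and 1.65 RPM, the 18 nt form at 61.8, 51.3, 0.222 and 0.926 RPM and the 16 nt form at 76.2, 55.4, 0.815 and 2.52 RPM. All 3 were higher with Ago1 than with Ago2 at both ages. With Ago2 they had 14, 3 and 11 reads at 3 d and 57, 32 and 87 reads at 30 d. Short forms made up 35.3% and 31.6% of the arm's reads with Ago1, and of these 97.6% and 93.5% lacked 5' bases alone.

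**Figure D2:**
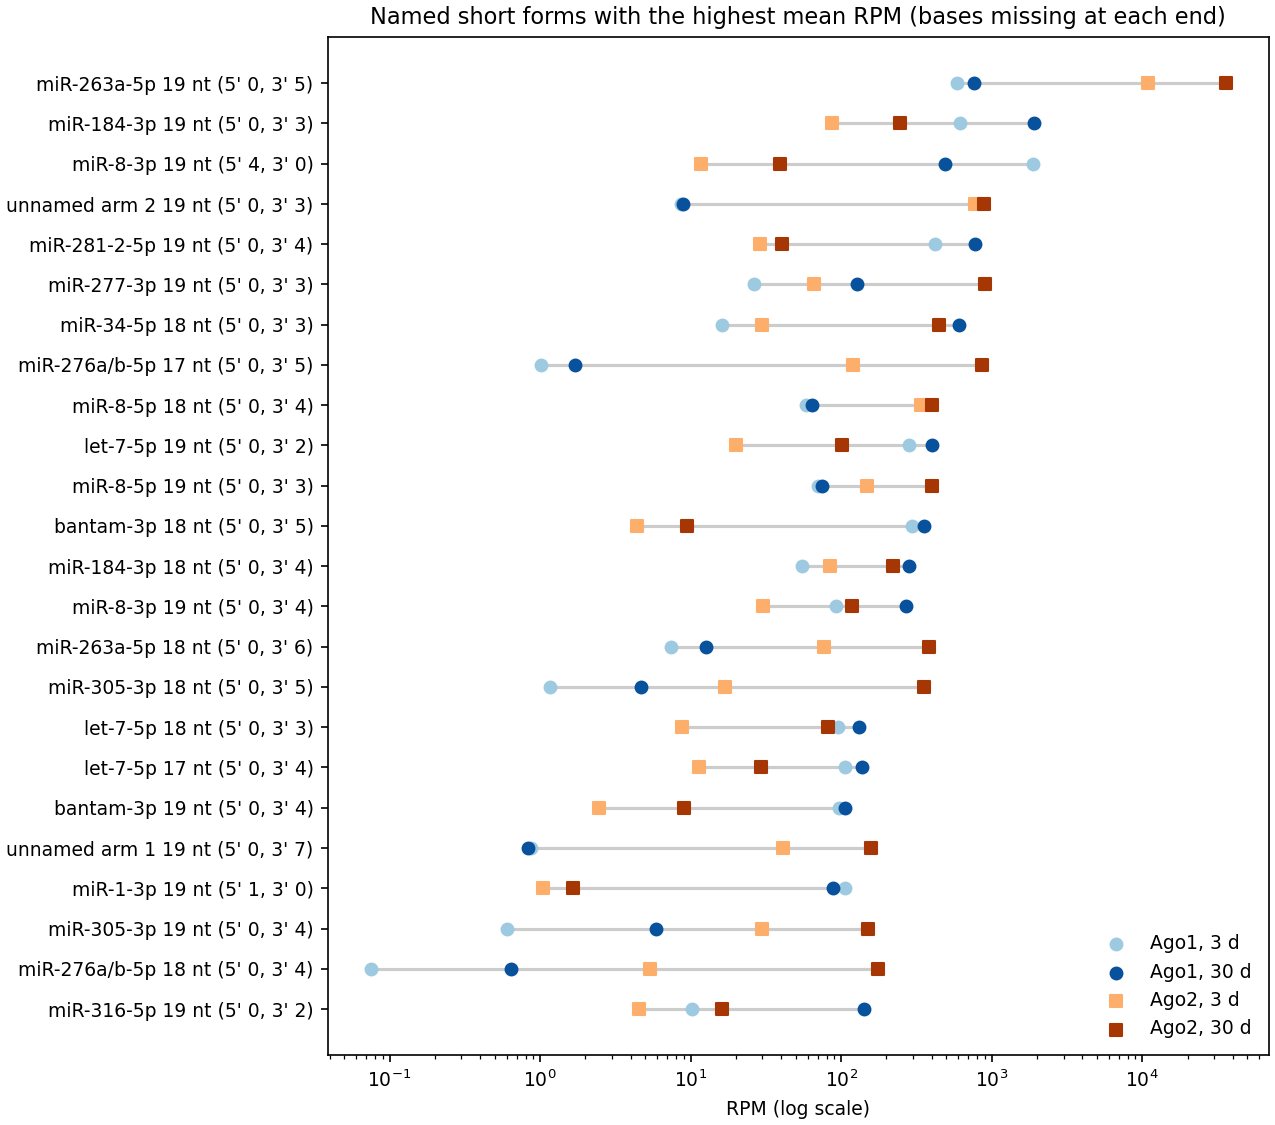
Points show RPM (log axis) in the 4 libraries for 24 short forms, 1 library per group. They have the highest mean among the forms named in the text, and include forms of unnamed arms 1 and 2. Brackets give the bases missing at each end of the arm's most abundant sequence. The 19 nt form of miR-263a-5p reaches 36000.4 RPM in Ago2 30 d, while the 5'-shortened form of miR-8-3p is highest, at 1884 RPM, in Ago1 3 d.

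Among arms with no name, unnamed arm 2, of 22 nt, had a 19 nt form lacking 3 bases at the 3' end. This form was at 8.67 RPM in Ago1 3 d, 8.92 RPM in Ago1 30 d, 771 RPM in Ago2 3 d and 887 RPM in Ago2 30 d. It was high with Ago2 at both ages and differed little between ages, with a log2 ratio of 30 d over 3 d of 0.20 with Ago2. In unnamed arm 1, a 19 nt form that lacks 7 bases was at 0.863, 0.832, 40.99 and 159 RPM. The 2 most abundant short forms of miR-8-5p lack 4 and 3 bases at the 3' end. The 18 nt form was at 58.0, 63.8, 337 and 400 RPM, and the 19 nt form at 69.7, 74.4, 148 and 400 RPM. All of these were higher with Ago2 than with Ago1 at the same age. miR-956-3p was also among the 10 arms with the most short reads in both Ago2 libraries, with a low short share of an abundant arm. It had 768 short reads of 3321184 in Ago2 3 d and 10496 of 5407182 in Ago2 30 d, and its short share was 0.0194% in Ago1 3 d, 0.0579% in Ago1 30 d, 0.0231% in Ago2 3 d and 0.194% in Ago2 30 d.

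A short form exceeded its own holder in few cases. With at least 100 reads there was no such form in Ago1 3 d, 1 in Ago1 30 d, 2 in Ago2 3 d and 5 in Ago2 30 d. They are named here after their values were seen. With Ago1 at 30 d it was the 19 nt form of miR-263b-5p, with 468 reads against 291. With Ago2 at 30 d they were the 17, 18 and 19 nt forms of miR-276a/b-5p, the 18 nt form of miR-34-5p and the 19 nt form of miR-12-5p, the last with 1869 reads against 1486. At 3 d with Ago2 they were the 17 nt form of miR-276a/b-5p and the 18 nt form of miR-34-5p.

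**Figure D3:**
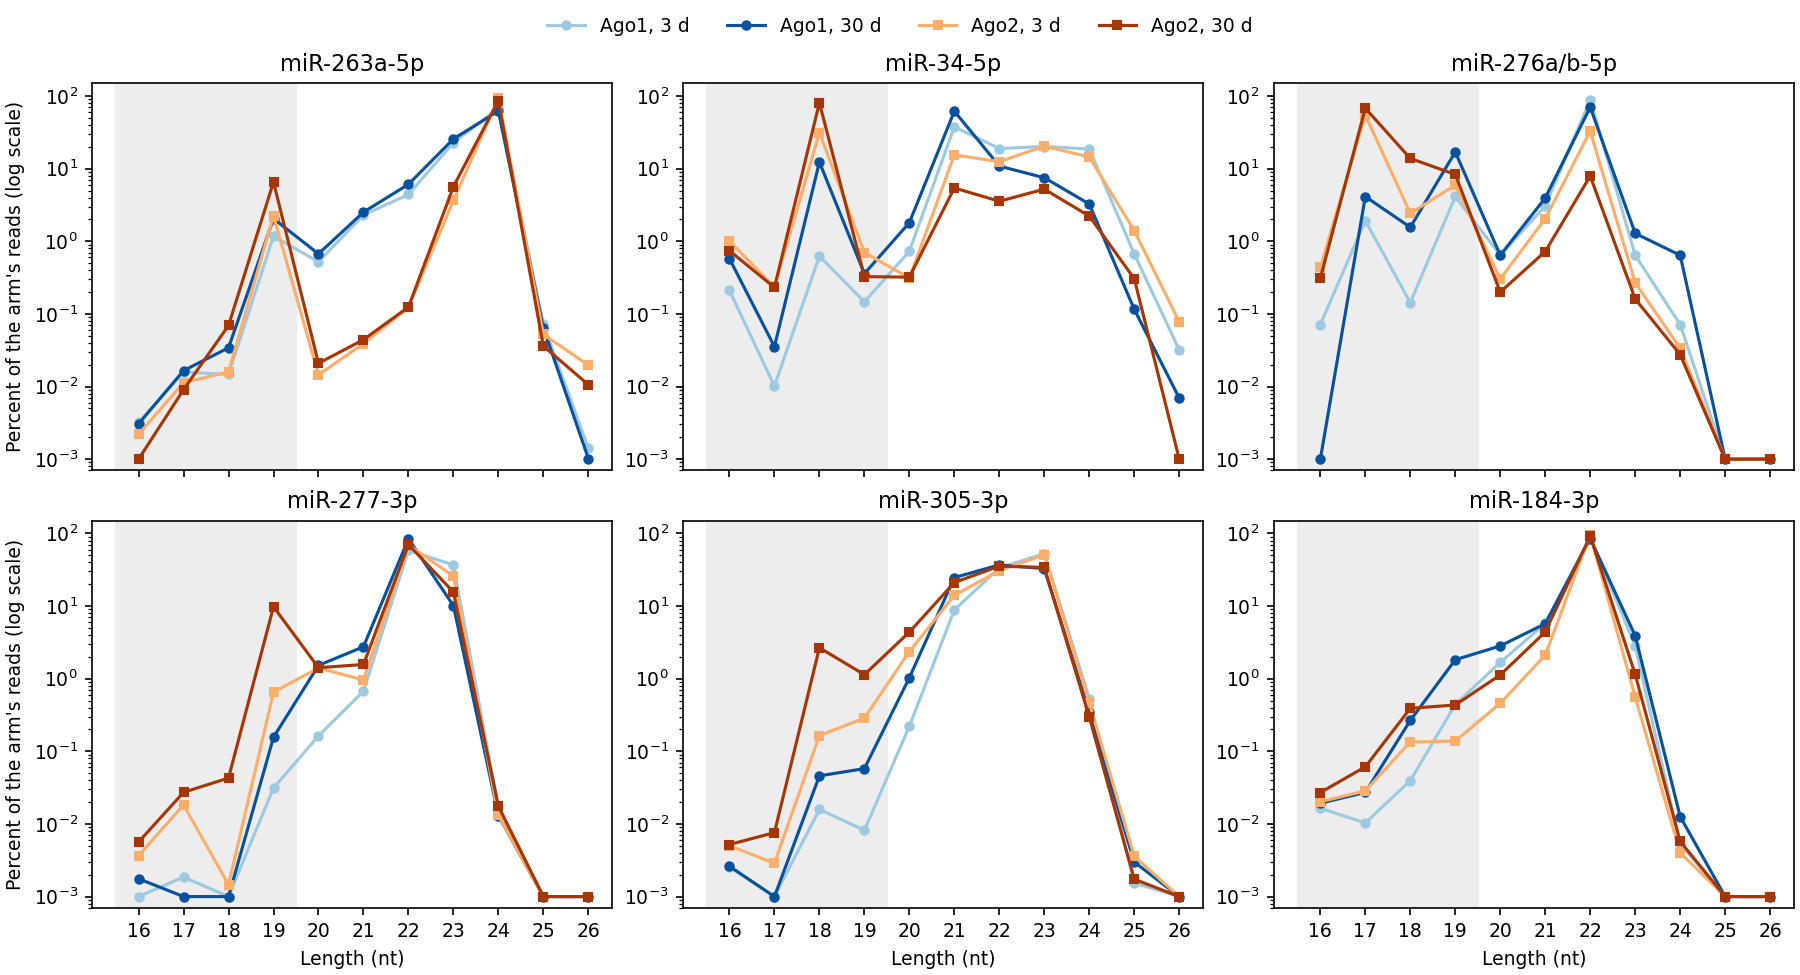
Lines show the percent of an arm's reads (log axis, values below 0.001% drawn at 0.001%) at each length for forms that start at the 5' end of the arm's most abundant sequence, 1 library per group, with 16 to 19 nt shaded. miR-263a-5p, miR-34-5p and miR-276a/b-5p have a peak in the shaded range that is separated from the longer forms, at 19, 18 and 17 nt with Ago2, whereas the lengths of miR-184-3p decline more evenly.

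To compare single sequences between libraries, those of any length that averaged 10 RPM or more in the pair of libraries were taken, and a log2 ratio with a pseudocount of 1 RPM was counted as higher or lower past 2-fold. Few short sequences passed this minimum, 54 to 76 of 2146 by comparison, and one abundant in 1 library alone could pass only by differing. The counts therefore describe the abundant forms, not all. Between 30 d and 3 d with Ago2, 46 of 65 short sequences were at least 2-fold higher, or 70.8%, against 27.6% of all 384 sequences past the minimum and 18.4% of those of 20 to 24 nt. None was at least 2-fold lower, against 7.03% of all. The median log2 ratio was 1.74 for the short sequences and 0.46 for all. No short sequence of the 65 was thus lower by that measure, and the 46 that were higher came from several arms, 6 of them from miR-263a-5p.

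With Ago1, at 30 d against 3 d, 20 of 70 short sequences were at least 2-fold higher, or 28.6%, against 11.3% of all 529 sequences, and 6 were lower, or 8.57%, against 13.4%. The median log2 ratio was 0.46 for the short sequences and -0.01 for all. The largest ratios belonged to miR-34-5p 18 nt, miR-957-3p 19 nt at 4.34 (2.67 and 73.4 RPM), the 19 nt form of unnamed arm 19 at 3.94 (1.20 and 32.8 RPM), miR-316-5p 19 nt at 3.68 (10.2 and 142 RPM) and miR-33-5p 19 nt at 2.96 (1.84 and 21.1 RPM). The smallest belonged to miR-375-3p 19 nt at -3.13, miR-982-5p 19 nt at -2.71, miR-993-3p 19 nt at -2.49, miR-9a-5p 19 nt at -2.40 and the 5'-shortened miR-8-3p form. The miR-375-3p form starts 3 bases inside the arm's most abundant sequence and runs 1 base past its 3' end.

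With Ago2 the largest ratios between ages belonged to miR-276a/b-5p 18 nt at 4.79 (5.34 and 174 RPM), miR-263b-5p 18 nt at 4.35 (0.741 and 34.5 RPM), miR-305-3p 18 nt at 4.31, miR-34-5p 18 nt and the 17 nt form of unnamed arm 2 at 3.80 (2.59 and 49.0 RPM). miR-263b-5p, the close relative of miR-263a-5p, thus also had a shortened form that was higher at 30 d, from 10 reads at 3 d. The whole miR-263b-5p arm was higher too, at 50.8 and 348 RPM, and its short share was 10.2% and 20.1%. The smallest ratios were close to 0, from -0.36 for the 16 nt form of miR-184-3p to -0.21 for the 5'-shortened 19 nt form and the 16 nt form of miR-8-5p. Between these were the 5'-shortened 18 nt form of miR-8-5p at -0.24 and the 19 nt form of unnamed arm 4 at -0.23.

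Between the proteins, short sequences were found on both sides. At 3 d, 18 of 54 were at least 2-fold higher with Ago2, or 33.3%, against 24.8% of all 517 sequences, and 28 were lower, or 51.9%, against 62.9%. Their median log2 ratio of Ago2 over Ago1 was -1.45, and that of all was -2.84. At 30 d, 32 of 76 were higher, or 42.1%, against 28.9% of all 519, and 28 were lower, or 36.8%, against 57.2%. Their median was 0.30, and that of all was -1.94. Of the short sequences counted as higher, 6 at 3 d and 7 at 30 d came from the miR-263a-5p arm.

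With Ago2 over Ago1, the largest ratios at 3 d were those of unnamed arm 2 19 nt at 6.32, miR-276a/b-5p 17 nt at 5.92, unnamed arm 1 19 nt at 4.49, miR-305-3p 19 nt at 4.26 (29.6 against 0.601 RPM) and miR-263a-5p 19 nt at 4.20. At 30 d they were those of miR-276a/b-5p 17 nt at 8.31 and 18 nt at 6.74, unnamed arm 2 19 nt at 6.48, unnamed arm 1 19 nt at 6.45 and miR-305-3p 18 nt at 5.98. Forms of unnamed arms 1 and 2, miR-276a/b-5p and miR-305-3p thus stood at the top at both ages. These ratios also hold differences of the whole arm. At 3 d with Ago2 and Ago1, unnamed arm 1 was at 41583 and 1066 RPM, with short shares of 0.139% and 0.130%. The miR-276a/b-5p arm was at 220 and 52.6 RPM, with short shares of 64.0% and 6.35%. The bantam-3p arm, with a form among the smallest ratios, was at 626 and 86142 RPM, with short shares of 1.20% and 0.499%. The smallest ratios at 3 d were those of the 5'-shortened miR-8-3p form at -7.21, bantam-3p 18 nt at -5.78 and the 19, 18 and 16 nt forms of miR-1-3p at -5.71, -5.68 and -5.41. At 30 d they were those of the 5'-shortened 19 nt form of miR-281-2-5p at -5.35 (0.260 against 50.3 RPM), bantam-3p 18 nt at -5.08, the 19 and 18 nt forms of miR-1-3p at -5.07 and -4.76, and miR-957-3p 19 nt at -4.58 (2.11 against 73.4 RPM). For forms near 1 RPM in 1 library the pseudocount draws the ratio towards 0, so a printed ratio can lie outside its counting interval, which was computed without it.

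The short share of an arm, its 16 to 19 nt reads over all its reads, needs no scaling between libraries. Arms differ in length, so shares of different arms are not like for like. For example, the most abundant sequence over the 4 libraries is 20 nt in miR-12-5p and 24 nt in miR-263a-5p. The comparison took in arms whose reads numbered 1000 or more in each library. Between 30 d and 3 d with Ago2 it was higher in 65 of 69 arms, and the median share went from 0.585% to 1.498%. With Ago1 it was higher in 65 of 97 arms and lower in 31, and the median share went from 0.514% to 0.604%. Between Ago2 and Ago1 it was higher with Ago2 in 42 of 58 arms at 3 d and in 64 of 73 at 30 d. The Wilson intervals of the 2 libraries were apart in 54 of the 65 arms that were higher at 30 d with Ago2, in 40 of the 65 with Ago1, in 30 of the 42 at 3 d and in 55 of the 64 at 30 d. Of the arms that were lower, they were apart in 1 of 4 with Ago2 and in 14 of 31 with Ago1 between ages, and in 6 of 16 at 3 d and 5 of 9 at 30 d between the proteins.

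Shares of at least 10% were found in 4 of the arms compared between ages in Ago2 3 d and in 10 at 30 d, and in 1 and 6 of those with Ago1. Besides miR-34-5p and miR-276a/b-5p, the arms with the largest differences between ages with Ago2 were miR-12-5p, from 13.5% to 38.7%, miR-305-5p, from 9.05% to 30.9%, and miR-970-3p, from 6.28% to 21.5%. With Ago1 they were miR-263b-5p, from 9.60% to 41.6%, miR-276a/b-5p, miR-316-5p, from 1.498% to 14.7%, miR-34-5p and unnamed arm 19, from 0.422% to 10.7%. The arms whose short share was lower at 30 d with Ago1 included miR-993-3p, from 5.52% to 1.28%, miR-9a-5p, from 5.06% to 0.972%, miR-1-3p, miR-982-5p, from 3.94% to 0.967%, and miR-970-3p, from 6.06% to 3.98%. miR-970-3p was thus lower at 30 d with Ago1 and higher with Ago2, and this difference was not tested. With Ago2 the smallest differences between ages were those of unnamed arm 2, from 13.2% to 12.2%, unnamed arm 31, from 1.04% to 0.944%, miR-2b-3p, from 0.381% to 0.302%, and unnamed arms 40 and 7, and apart from unnamed arm 2 their intervals overlapped.

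Between the proteins, the short share was most in favour of Ago2 at 3 d in miR-276a/b-5p, miR-34-5p, miR-12-5p (13.5% against 2.19%), unnamed arm 2 (13.2% against 2.71%) and miR-9c-5p (9.81% against 1.23%). At 30 d it was so in miR-34-5p, miR-276a/b-5p, miR-12-5p (38.7% against 3.87%), miR-305-5p (30.9% against 5.68%) and unnamed arm 19 (31.6% against 10.7%). It was most in favour of Ago1 at 3 d in unnamed arm 23 (3.80% against 0.812%), unnamed arm 28 (2.10% against 0.997%), miR-8-3p (1.51% against 0.449%), miR-100-5p and miR-283-5p (2.25% against 1.88%), the last 2 with overlapping intervals. At 30 d it was so in miR-1-3p, 31.6% against 8.22%, miR-263b-5p, 41.6% against 20.1%, miR-184-3p, miR-100-5p and unnamed arm 40 (0.749% against 0.246%), again the last 2 with overlapping intervals.

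**Figure D4:**
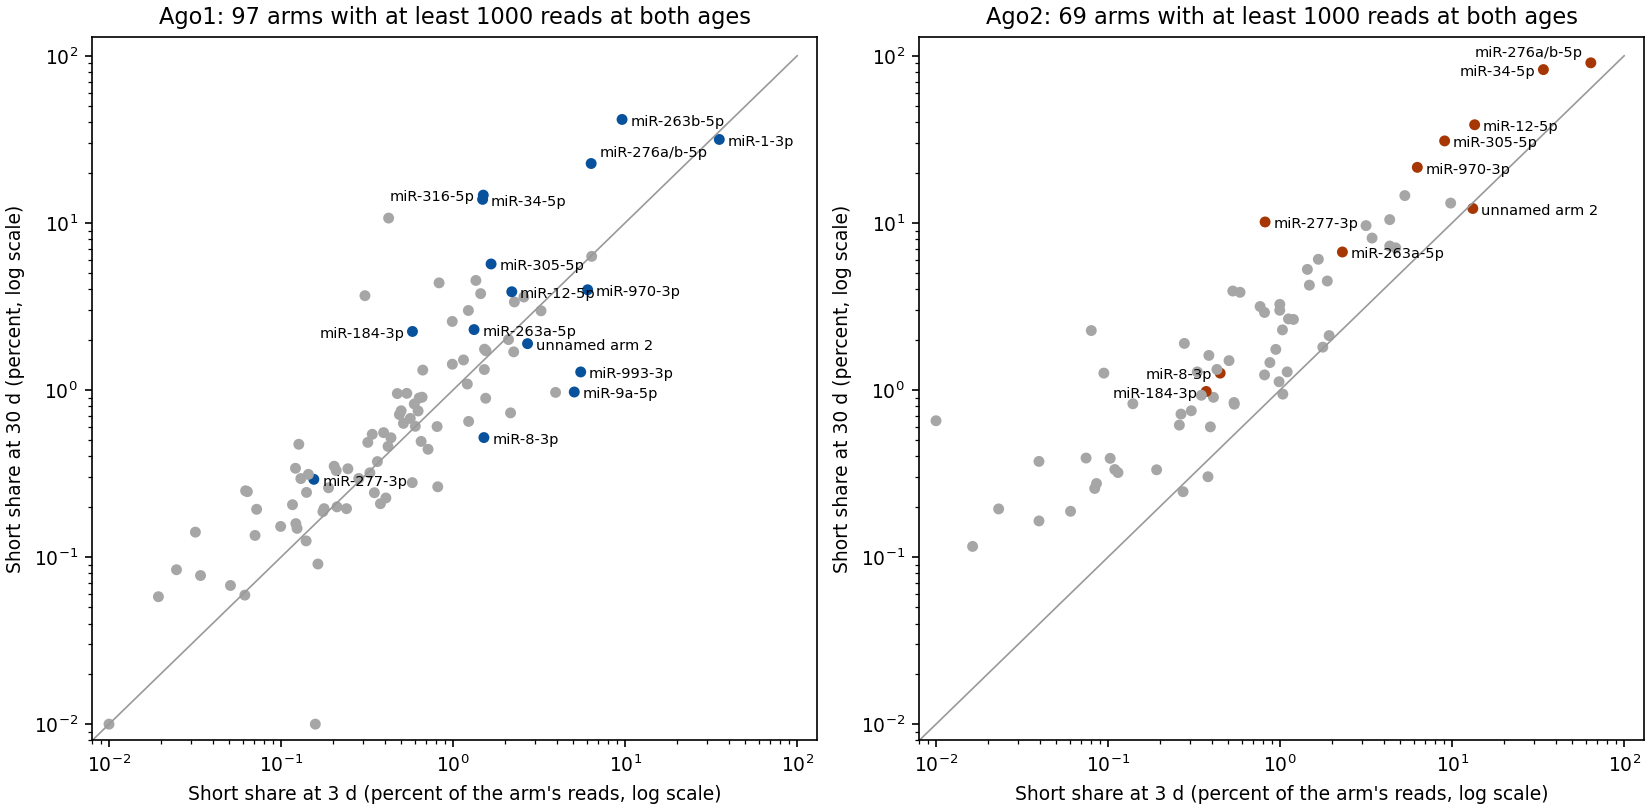
Each point is an arm with at least 1000 reads at both ages, with its 16 to 19 nt reads as a percent of all its reads at 3 d (x) and 30 d (y) on log axes, for Ago1 (97 arms) and Ago2 (69 arms), and shares below 0.01% drawn at 0.01%. The line marks equal shares, and with Ago2 65 of the 69 arms lie above it, with miR-34-5p at 82.7% and miR-276a/b-5p at 90.8%.

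Of 12 arms known for trimming by Nibbler, 8 had enough reads with Ago2 at both ages. All 8 had a higher short share at 30 d, against 65 of all 69 arms, with a median difference of 0.92 points against 0.81 points over all, so the list was near the background. With Ago1, 8 of 10 were higher at 30 d, against 65 of all 97 arms, with a median difference of 0.19 points against 0.09 points. The exceptions were miR-252-5p, from 0.807% to 0.604%, and miR-190-5p, from 0.407% to 0.226%. Between the proteins, 5 of 8 were higher with Ago2 at 3 d, against 42 of all 58 arms, and 9 of 10 at 30 d, against 64 of all 73. The arms that were lower with Ago2 at 3 d were miR-11-3p at 0.265% against 0.339%, miR-10-5p at 0.114% against 0.204% and miR-190-5p at 0.349% against 0.407%. The intervals of miR-190-5p overlapped, with 6 short reads of 1721 in Ago2 3 d, and those of miR-11-3p and miR-10-5p were apart. At 30 d the exception was miR-10-5p, at 0.320% against 0.350%. The shares of the other listed arms not given above were, at 30 d with Ago2 and Ago1, 0.637% and 0.246% for miR-317-3p, 0.333% and 0.244% for miR-31a-5p and 6.68% and 2.57% for miR-279-3p. miR-7-5p and miR-3-3p had too few reads for any comparison.

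Of 6 arms known from lifespan and ageing (miR-34-5p, miR-277-3p, let-7-5p, miR-14-3p, miR-184-3p and bantam-3p), all 6 were higher at 30 d with each protein, against 65 of all 69 arms with Ago2 and 65 of all 97 with Ago1. The median differences were 4.97 points with Ago2, against 0.81 points over all arms, and 0.67 points with Ago1, against 0.09 points. The list was chosen with earlier results of these data known, so its distance from all arms is a description only. The short share of miR-14-3p, a miRNA known for limiting cell death, was 0.283% in Ago1 3 d, 0.295% in Ago1 30 d, 1.44% in Ago2 3 d and 5.27% in Ago2 30 d. Its intervals at the 2 ages overlapped with Ago1. With Ago2 its short reads mostly lacked 5' bases alone, 93.0% of 57 reads at 3 d and 90.7% of 1504 at 30 d. With Ago2 against Ago1, 5 of the 6 were higher at either age, the exception being miR-184-3p. miR-34-5p belongs to both lists.

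The 3 arms of the let-7 complex, whose hairpins are made from 1 transcript, differed among themselves. The short share of let-7-5p was 2.27% in Ago1 3 d, 3.36% in Ago1 30 d, 4.34% in Ago2 3 d and 10.5% in Ago2 30 d. That of miR-125-5p was 1.21%, 1.09%, 1.93% and 2.12%, and that of miR-100-5p was 1.52%, 1.75%, 0.812% and 1.23%. let-7-5p and miR-125-5p were thus higher with Ago2 than with Ago1 at both ages, and miR-100-5p was lower, with overlapping intervals. Of the muscle arms, miR-133-3p had a short share of 0.240% in Ago1 3 d and 0.195% in Ago1 30 d, far below that of miR-1-3p.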

How the data were processed

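Small RNAs of 4 immunoprecipitates, 1 library per group, were read from the lists of distinct sequences that the authors deposited with raw read counts, as whole numbers and not normalized. The TruSeq small RNA kit was used, per the labels' protocols. Tools and build in the submitters' processing notes are CASAVA 1.8.2, Bowtie and dm3. Not given in the sources used here were Bowtie's version, adapter trimming, alignment settings, the filter on listed sequences and the total depth, so depth means listed reads. A lower length limit of the trimming would set which short reads are listed.

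A sequence listed up to 5 times with the same count was counted once. RPM are reads per 1000000 listed reads. Ratios of RPM are relative to the other reads of a library and are not amounts. Sequences of 16 to 19 nt were placed in the most abundant holder of at least 20 nt of the same library, by exact match. An arm (608 in all) took in sequences that matched its most abundant one exactly over 14 nt or more, with ends no further away than 8 nt (5') and 10 nt (3'). Short sequences of near-identical hairpin copies cannot be told apart. Names of 55 arms are recalled background knowledge, given after the lists were opened, and all 55 have an annotated arm within 2 nt of the arm's length in the annotation held here. Named arms held 92.8% to 98.2% of short reads. Chromosomes were looked up by gene name in RefSeq Release 6, and no coordinates are given because the builds differ. Sequences were copied from the lists.

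Shares have Wilson 95% intervals and ratios exact conditional binomial 95% intervals of the raw counts. PCR copies could not be told from separate molecules, so both cover counting error only. The lists go down to 1 read. A count of 0 allows up to 3 reads at the 95% level, by counting error alone, which is 0.0868 to 0.222 RPM. The text names the 10 most abundant short sequences and the 10 arms with the most short reads of each library, the 5 largest and 5 smallest differences of each of 4 comparisons, the 5 most abundant sequences without a holder, and members of the lists. The members and lists were chosen with earlier results of these data known. Computations used Python 3.11.15, numpy 2.4.6, scipy 1.17.1 and edgeR 4.0.16 (TMM scaling alone), and were tested on simulated data. Alternatives were other counting, placement, length, pseudocount, minimum and scaling choices.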

Additional observations from a re-analysis of the deposited data

Results flagged for a closer look

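The 19 nt form of miR-8-3p that lacks 4 bases at the 5' end went in opposite directions between ages with the proteins. The log2 ratio of 30 d over 3 d was -1.94 with Ago1, from 1884 to 491 RPM, and 1.66 with Ago2, from 11.7 to 39.1 RPM. With 1 library per group the difference was not tested. It was the form with the most reads of all short sequences with Ago1 at 3 d.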

How the results depend on the processing

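No paired analysis was possible because each group had 1 library and no test was made. The order of the proteins at 3 d depended on 1 arm and on length. The log2 ratio of the short share of Ago2 over Ago1 at 3 d was 1.06, but -0.28 without miR-263a-5p, -0.24 for 16 to 18 nt alone and -1.04 without the most abundant member, a setting chosen after seeing the data. At 30 d it was 2.32, against 1.11, 0.76 and 0.13. For 30 d over 3 d it was 0.44 with Ago1, against 0.43 without miR-263a-5p and 0.76 for 16 to 18 nt, and 1.70 with Ago2, against 1.82, 1.77 and 1.62 without the most abundant member. Against 20 to 24 nt reads it was 1.13, 2.42 and 1.73 in the comparisons of the proteins at 3 d and 30 d and of the ages with Ago2. The setting without miR-263a-5p took the arm's longer reads out of the total too. The setting without the most abundant member left out only the 19 nt form of that arm and kept all listed reads as the total. Their ratios are therefore not like for like. The cause of the differences between libraries was not tested.

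The short share without sequences of under 10 reads was 0.654%, 0.891% and 1.37% in the first 3 libraries. With every listing counted it was 1.40% and 4.61% with Ago2 at 3 d and 30 d. Without miR-263a-5p, whose reads of all lengths then left the total too, it was 0.627%, 0.845%, 0.518% and 1.82%. The percent lacking 3' bases alone was 48.6%, 79.7%, 88.9% and 92.9% without miR-263a-5p, and 80.2%, 96.9% and 97.6% in the last 3 libraries against the arm's most abundant sequence over all libraries, also chosen after seeing the data. With no minimum of RPM, which lets rare sequences in, the members at least 2-fold higher and lower numbered 78 and 154 for Ago2 over Ago1 at 3 d, 138 and 138 at 30 d, 48 and 21 for 30 d over 3 d with Ago1, and 132 and 1 with Ago2. TMM and median of ratios scaling shifted the median of all sequences by 0.51 and 0.58 for Ago2 over Ago1 at 3 d, by 0.71 and 0.70 at 30 d, by 0.03 and -0.01 for the ages with Ago1 and by -0.26 and -0.23 with Ago2. The counts with the minimum stayed within 1.5 times under both scalings and a pseudocount of 0.1 RPM. Of all results recomputed under an alternative, 38 kept their value within the limits used, 35 moved and 3 turned direction, and those 3 were the ratios at 3 d given above.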
